A study of Schizosaccharomyces pombe with 8 samples.

Results

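Transcript levels of *Schizosaccharomyces pombe* (fission yeast) lacking *top1* were compared with those of wild-type cells in the absence of stress. The comparison takes 4 of the 8 libraries of the series, 2 biological replicates of each strain without treatment, and covers all 5165 genes with values, of which 5019 had enough reads to be tested. Δ*top1* cells were strain RF14, in which a kanMX6 cassette replaces *top1*, and wild-type cells the standard h- strain with the intact gene; both are h-. They were grown in rich YE5S medium at 30 °C, and the untreated libraries differ in the labels by genotype and replicate number alone. The other 4 libraries are the same strains after 30 min with 1 mM H2O2, and they are used for the shared estimate of the spread and for values set side by side. The deletion is represented by a single strain, so that differences due to *top1* and other differences between RF14 and the wild-type strain cannot be told apart.

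DNA topoisomerase I nicks one DNA strand, lets the duplex rotate and reseals it, which removes the supercoils that build up around a moving RNA polymerase. It is not essential in fission yeast, where topoisomerase II can also relax supercoils. The question here is how far the unstressed transcriptome of cells without it differs. The regions next to the telomeres are packed in silent chromatin in this yeast, hold families of near-identical genes, and on chromosome III adjoin the arrays of rRNA genes.

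The deposited values are normalized counts, in which each library was scaled by its own size factor, and a value of 1 is close to 1 read. Reads on genes numbered between 16528460 and 19899720 per untreated library, and a floor of 3 reads was worth between 2.44 and 2.86 normalized counts. The replicates were separate libraries and not copies: the log2 difference between replicates had an SD across genes of 0.37 for the wild-type pair and 0.29 for the Δ*top1* pair. Genes are described below as called higher or lower when limma, fitted on log2(normalized count + 1) with all 8 libraries, gave a Benjamini-Hochberg adjusted p under 0.1. Log2 differences are Δ*top1* minus wild-type on that scale, where the change of genes with few reads comes out too small. For 1 gene alone, 2 libraries against 2 allow no p below 0.333 in an exact permutation test, and each call therefore rests on a spread that is shared across genes. As in any bulk sample, fewer cells with a transcript and less transcript per cell cannot be told apart.

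The targeted gene came out as labelled. *top1* (SPBC1703.14c, chromosome II from 2941734 to 2944596 in ASM294v3, minus strand) had normalized counts of 1967 and 2150 in wild-type and of 309 and 286 in its deletion strain. The difference was -2.79 on the log2 scale (standard error, SE, of 0.12, adjusted p = 1.5e-05, limma), and 324 and 351 reads, 14.4% of the wild-type level, were still assigned to the gene in Δ*top1* cells. The 3 genes with values on each side of *top1* were not called by limma with all libraries. SPBC1703.13c, which is annotated as an inorganic phosphate transporter and lies next to *top1*, had 9659 and 10163 normalized counts for the wild-type pair and 13478 and 13349 for the Δ*top1* pair (log2 0.44, adjusted p = 0.33, limma), and DESeq2 gave it an adjusted p of 0.013. On the other side *vps33*, for a subunit of the HOPS and CORVET tethering complexes, had 1725 and 1859 against 2031 and 2145 (log2 0.22), and next to it SPBC2A9.02 had 1846 and 2872 against 3443 and 4173 (log2 0.72, adjusted p = 0.83, limma). In these 3 neighbours and in SPBC2A9.03 (log2 0.33) the strains did not overlap and Δ*top1* was higher, as in 20.7% of all genes tested, whereas they did overlap in *ubp9* (log2 -0.00) and SPBC1703.11 (log2 -0.04), whose sign turned in some alternatives.

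Apart from *top1*, few transcripts were called between the unstressed strains. Of the 5019 genes tested, 14 were called higher in Δ*top1* cells (0.279%) and 17 lower (0.339%), or 31 in all (0.618%). At least 2-fold, 9 were higher (0.179%) and 12 lower (0.239%). Differences were small elsewhere: 4897 genes (97.6%) lay within 1.5-fold, the median log2 difference was 0.01, and the quartiles were -0.08 and 0.09. Strains that do not overlap were common without a call, since all Δ*top1* libraries lay above all wild-type libraries in 1038 genes (20.7%) and below them in 798 (15.9%). The number called moved with the tool and with the libraries in the fit. It was larger with a replicate block, whose counts are given at the end, because the labels do not say that replicate numbers mark a shared batch. On the recovered reads DESeq2 called 28 higher and 32 lower, and edgeR 12 and 18. By limma it was 9 higher without wild-type replicate 1, 7 without wild-type replicate 2 and 9 without Δ*top1* replicate 2, and 11 lower without Δ*top1* replicate 1. Of the 31 genes, 14 kept the call without each library in turn. These 14 are *top1*, *hsp16*, *gal10*, *nic1*, *hsp3101*, SPCC569.01c, SPCC569.03, SPCC569.06, SPCP20C8.01c, SPCP20C8.02c, SPCC1884.01, SPAC750.01, SPAC750.05c and SPAC750.06c.

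**Figure D1:**
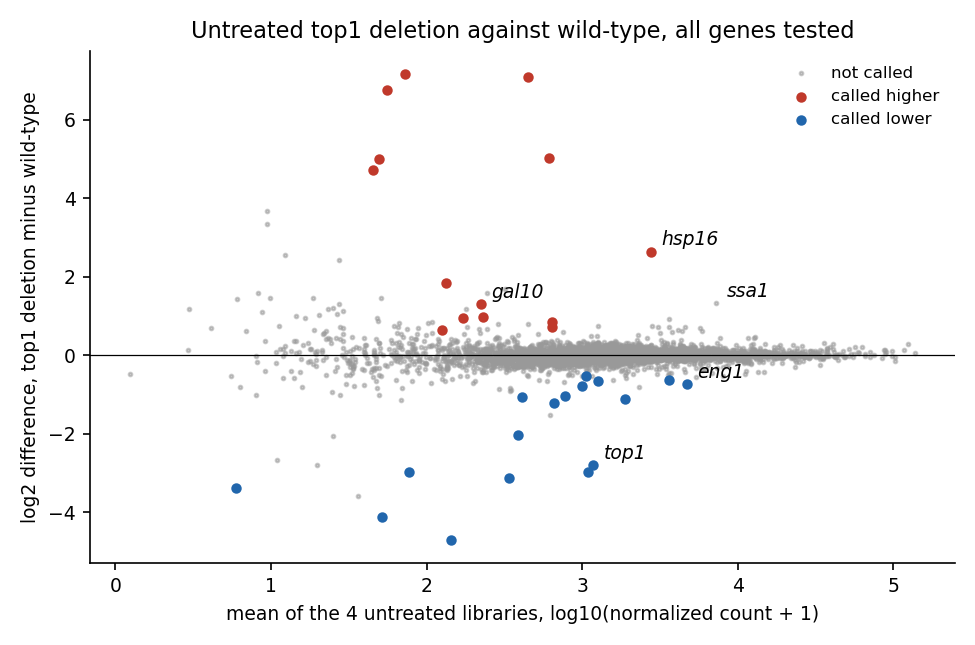
Log2 difference of each tested gene between untreated Δ*top1* and wild-type cells (vertical axis) against the mean of the 4 untreated libraries (horizontal axis, log10 of the normalized count + 1). Grey points are genes that were not called, red points the 14 called higher and blue points the 17 called lower; 97.6% of the genes lie within 1.5-fold.

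Most of the called genes lie near chromosome ends. Distances were measured to the ends of the reference sequences of ASM294v3. On chromosome III, where arrays of rRNA genes adjoin, they need not be distances to the telomere. Of the 160 tested genes within 100 kb of an end, 8 were called higher and 13 lower, against 5 and 4 of the 4843 genes farther away, and 1 higher gene, SPBC1685.12c, has no position in the reference. Within 100 kb 65.0% of the genes lay within 1.5-fold, and 98.7% of the others did. The direction differed by end. The called genes near both ends of chromosome III were all lower, those within 40 kb of the right end of chromosome I were all higher, and the 2 called near the right end of chromosome II were higher. Many genes there have near-identical copies, whose reads the counting could have split, so the share of 31-base words that a gene holds in common with another gene is given as shared sequence.

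At the left end of chromosome III the levels were lower in Δ*top1* cells, with more negative medians nearer to the end. All 18 tested genes within 80 kb of the end had a negative difference, and in 15 the strains did not overlap. Medians were -3.55 between 20 and 40 kb (4 genes) and -0.71 between 40 and 60 kb (8 genes). They were -0.27 between 60 and 80 kb (6 genes) and -0.03 between 80 and 100 kb (12 genes). Genes low in both strains were not tested, so a gene near 0 in the Δ*top1* libraries could enter only by being high in wild-type. The share of negative genes and the medians are thus set in part by this. The 18 include SPCC757.02c, with 11 reads or fewer in each untreated library, and SPCC757.13 at -0.00. SPCP20C8.01c (III:28298-29423), an uncharacterized protein and the tested gene nearest to this end, had 1910 and 1961 normalized counts for the wild-type pair and 235 and 259 for the Δ*top1* pair (log2 -2.97, SE 0.13, adjusted p = 1.5e-05, limma), with 91.6% shared sequence. Beside it, SPCP20C8.02c (III:30561-31520, 28.4% shared sequence) had 297 and 254 against 11.4 and 8.15 (log2 -4.69, adjusted p = 1.6e-04, limma). SPCP20C8.03 (III:32624-33393, 21.8%) had 127 and 67.8 against 2.86 and 6.52, the latter being 3 and 8 reads (log2 -4.12, adjusted p = 0.035, limma). SPCC1884.01 (III:36972-38788), with 1.49% shared sequence, had 156 and 117 against 17.1 and 15.5 (log2 -2.97, adjusted p = 0.0014, limma). In each of these 4 genes both Δ*top1* libraries were far below both wild-type libraries.

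Farther in lay genes without shared sequence and with smaller differences. *nic1* (III:43543-46985), which encodes a nickel and cobalt transporter of the plasma membrane, had 1024 and 1067 normalized counts for the wild-type pair and 509 and 510 for the Δ*top1* pair (log2 -1.03, SE 0.09, adjusted p = 8.7e-04, limma). *hsp3101* (III:47325-48501), for a glyoxylase III that removes methylglyoxal, had 540 and 567 against 272 and 253 (log2 -1.07, adjusted p = 0.0040, limma). The transcription factor gene SPCC757.04 and the peptidase gene SPCC757.05c followed, with log2 differences of -0.64 and -0.78 (adjusted p = 0.047 and 0.022, limma). *ctt1*, the catalase gene at 56.7 kb from this end, had 4185 and 4476 against 3243 and 3069, a log2 difference of -0.46 that was not called (adjusted p = 0.61, limma). Some of these calls were lost in fits without 1 library, which have fewer libraries for the difference or the spread. The log2 differences in these fits ran from -4.60 to -3.64 for SPCP20C8.03, from -0.76 to -0.52 for SPCC757.04 and from -0.87 to -0.68 for SPCC757.05c. SPCP20C8.03 had an adjusted p of 0.28 without wild-type replicate 1, 0.13 without wild-type replicate 2 and 0.24 without Δ*top1* replicate 1. SPCC757.04 had 0.26 without wild-type replicate 2, 0.16 and 0.45 without Δ*top1* replicates 1 and 2, and 0.12 without either of the treated Δ*top1* libraries. SPCC757.05c had 0.19 without wild-type replicate 2 and 0.22 without Δ*top1* replicate 2 (limma throughout).

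The right end of chromosome III showed the same order of medians, though single genes did not all follow it. All 18 tested genes within 60 kb were negative, and in 14 the strains did not overlap. Medians were -2.96 between 10 and 20 kb (2 genes) and -0.79 between 20 and 40 kb (6 genes). They were -0.23 between 40 and 60 kb (10 genes) and -0.08 between 60 and 80 kb (8 genes). Genes low in both strains were left out here too, so the share of negative genes and the medians are set in part by that. SPCC569.01c (III:2434691-2436530, 52.0% shared sequence) had 661 and 544 normalized counts for the wild-type pair and 64.7 and 71.7 for the Δ*top1* pair (log2 -3.12, adjusted p = 5.5e-05, limma). SPCC569.03 (III:2429987-2431451, 19.6%) had 608 and 638 against 146 and 156 (log2 -2.04, adjusted p = 1.6e-05, limma), and SPCC569.02c between them had 34.8 and 32.0 against 3.81 and 4.07 without being called (log2 -2.80, adjusted p = 0.15, limma). SPCC569.05c, a spermidine family transporter gene at 24.9 kb, had 1701 and 2770 against 1497 and 1699 (log2 -0.44, adjusted p = 0.96, limma). Its difference was smaller than that of the next 2 genes named. SPCC569.06 (III:2420265-2422253), without shared sequence, had 2583 and 2547 against 1182 and 1203 (log2 -1.10, adjusted p = 3.2e-04, limma). SPCC569.07, for an aromatic aminotransferase, had 800 and 1047 against 368 and 418 (log2 -1.22, adjusted p = 0.068, limma), but its adjusted p was 0.12 and 0.33 without wild-type replicates 1 and 2, and 0.46 and 0.24 without Δ*top1* replicates 1 and 2. Among the genes that were not called, *ade5*, of purine synthesis, had 2494 and 2456 against 1838 and 1743 (log2 -0.47, adjusted p = 0.15, limma), and *are2*, which esterifies sterols, had 1210 and 1218 against 827 and 934 (log2 -0.47, adjusted p = 0.12, limma).

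**Figure D2:**
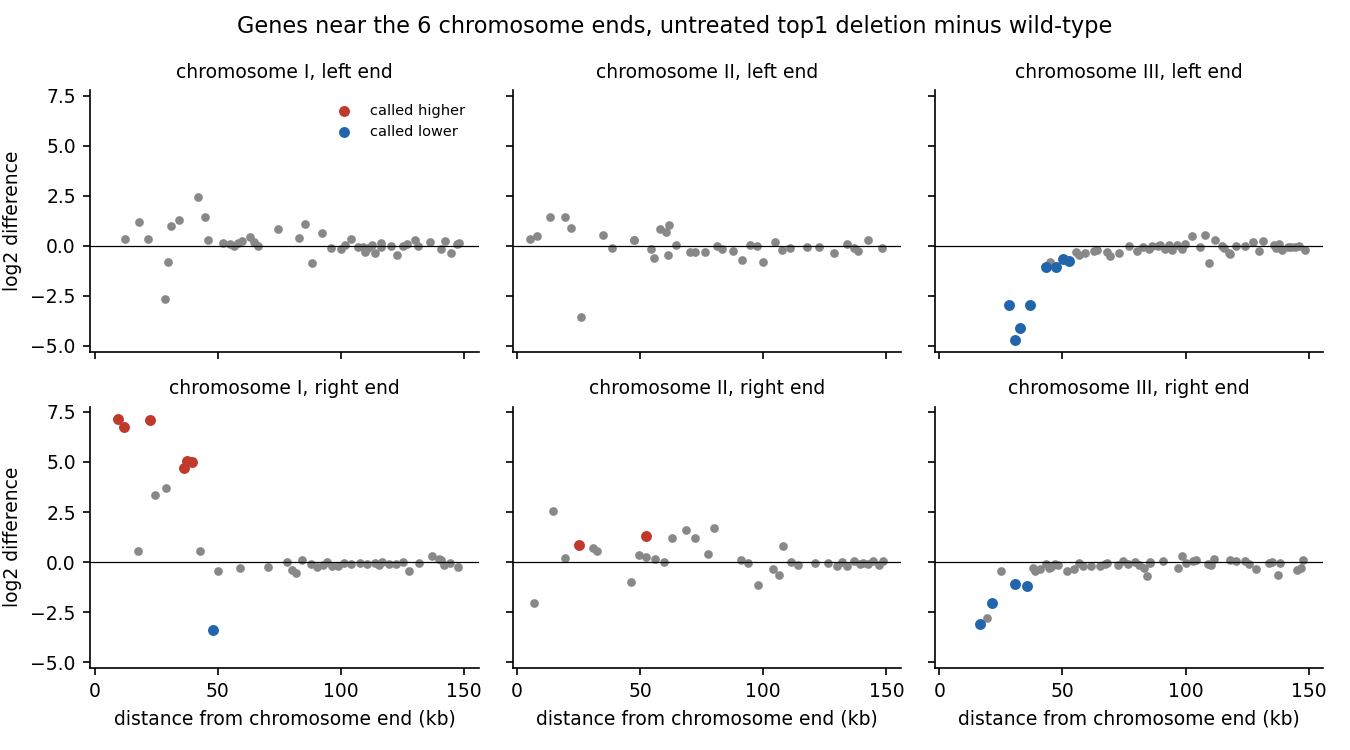
Log2 difference between untreated Δ*top1* and wild-type cells (vertical axis) of each tested gene against its distance from the chromosome end in kb (horizontal axis), one panel for each of the 6 ends; red genes were called higher and blue genes lower. The genes near both ends of chromosome III lie below 0 and approach it with distance, while the tested genes within 40 kb of the right end of chromosome I lie above it. At each end, genes that were low in both strains were not tested and are not shown.

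The right end of chromosome I held the genes with the greatest positive differences of the 5019. All 9 tested genes within 40 kb were positive, with a median log2 difference of 5.0, and 6 were called. A gene was tested only if its mean over all libraries, treated ones included, reached a minimum. A gene near 0 in wild-type could therefore enter only by being high in Δ*top1* cells, and genes low in both strains were left out. The share of positive genes and the median are thus set in part by this minimum. SPAC750.01 (I:5555674-5556768), an aldo/keto reductase family gene with 37.6% shared sequence, had 4.97 and 5.65 normalized counts in wild-type, 6 reads in each library, and 690 and 1090 in Δ*top1* (log2 7.11, SE 0.24, adjusted p = 4.7e-06, limma). SPAC750.06c (I:5568903-5569803) and SPAC750.05c (I:5565881-5567240) had no read in either wild-type library. SPAC750.06c had 134 and 152 normalized counts in Δ*top1*, at least 54.0-fold higher taking 3 reads as the floor of each library, and SPAC750.05c had 92.4 and 126, at least 41.2-fold higher. Their shared sequence was 93.7% and 95.3%, so that reads of copies may be among these.

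The 3 SPAC186 genes that were called higher have no shared sequence. SPAC186.05c (I:5540032-5541481), whose product resembles the GDT1 family of manganese and calcium transporters, had 60.5 and 19.8 normalized counts for the wild-type pair and 1017 and 1345 for the Δ*top1* pair (log2 5.03, adjusted p = 0.017, limma). SPAC186.04c, beside it, had 0.829 and 3.77 against 80 and 109 (log2 5.0, adjusted p = 0.017, limma), and SPAC186.06, an isomerase gene, had 0.829 and 2.83 against 33.3 and 139 (log2 4.71, adjusted p = 0.069, limma). The wild-type values of the last 2 genes are 4 reads or fewer, and the Δ*top1* libraries were above both wild-type libraries in all 3. Without wild-type replicate 1 the adjusted p of SPAC186.04c was 0.11 and that of SPAC186.06 was 0.45. Without wild-type replicate 2, SPAC186.05c had 0.13 and SPAC186.06 0.20, and without Δ*top1* replicate 2, SPAC186.04c had 0.15, SPAC186.05c 0.12 and SPAC186.06 0.41. SPAC186.06 had 0.21 without either treated Δ*top1* library (limma throughout).

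Genes between and beyond them followed in part. SPAC186.08c, for an L-lactate dehydrogenase, had 0.829 and 0 normalized counts in wild-type against 14.3 and 18.7 (adjusted p = 0.12, limma), and *pdc102*, for a pyruvate decarboxylase, had 1.66 and 0 against 12.4 and 19.6 (adjusted p = 0.29, limma, 0.023 by DESeq2), neither of them called by limma. SPAC750.07c, SPAC750.03c and SPAC186.07c had under 5 normalized counts in every untreated library, and SPAC750.08c and SPAC750.04c were at 0 in all 4. These genes were below the minimum and were not tested. At 48.2 kb the direction was the opposite: SPAC186.02c (I:5529851-5530960), annotated as a hydroxyacid dehydrogenase, had 16 and 7 reads in wild-type (13.3 and 6.59 normalized counts) and none in Δ*top1*, at least 3.74-fold lower. Its adjusted p was 0.023 with all libraries and 0.10 without wild-type replicate 1 (limma). The 4 tested genes between 40 and 60 kb had a median of -0.37.

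Toward the right end of chromosome II the values were higher in Δ*top1* cells, with fewer calls. Within 80 kb 15 of 17 tested genes were positive, with a median log2 difference of 0.57. Genes low in both strains were left out here too, so this share and median are set in part by the minimum. Some of the 15 rest on few reads or shared sequence. SPBCPT2R1.07c, with 96.0% shared sequence, had 0 and 10 reads in wild-type against 20 and 21. *gal10* (II:4484023-4487535, SPBPB2B2.12c), whose enzyme interconverts UDP-galactose and UDP-glucose, had 129 and 125 normalized counts for the wild-type pair and 324 and 313 for the Δ*top1* pair (log2 1.32, SE 0.15, adjusted p = 0.0060, limma). Its neighbours were not called: *gal1*, the galactokinase gene, had 513 and 621 against 673 and 752 (log2 0.33), and *gal7*, the uridylyltransferase gene, had 386 and 540 against 424 and 591 (log2 0.13), where the strains overlap and the sign turns without either of 2 libraries. The 5 genes between 60 and 80 kb were all positive, with a median of 1.2 and no call. SPBPB2B2.06c, a phosphoprotein phosphatase gene, had 103 and 133 against 265 and 478 (log2 1.60, adjusted p = 0.10, limma, just over the threshold, 0.097 by edgeR and 1.2e-05 by DESeq2), and SPBPB2B2.01, an amino-acid permease gene, had 188 and 116 against 479 and 482 (log2 1.69, adjusted p = 0.27, limma). SPBCPT2R1.04c, at 25.2 kb and with 94.4% shared sequence, had 454 and 446 against 722 and 925 (log2 0.86, adjusted p = 0.018, limma), and 0.11 and 0.15 without wild-type replicates 1 and 2.

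No gene was called near the left ends of chromosomes I and II. On chromosome I 16 of 19 tested genes within 80 kb were positive (median 0.30), and on chromosome II 12 of 20 were (median 0.30). Genes low in both strains were left out at these ends as well, so these shares and medians are set in part by the minimum. SPAC977.04 at the first, with 100% shared sequence, had 13.3 and 16 normalized counts against 34.3 and 41.6, and the cell surface glycoprotein gene *pfl6*, with 97.5% shared sequence, had 5.80 and 9.42 against 35.2 and 55.4 (log2 2.43, adjusted p = 0.58, limma, 0.0051 by DESeq2). SPBC1348.07 at the second (71.4%) had 24.9 and 26.4 against 56.2 and 92.1 (log2 1.46, adjusted p = 0.21, limma, 0.0082 by DESeq2). More than 200 kb from the ends the median log2 differences of the chromosomes were 0.01 (I, 2141 genes), 0.01 (II, 1709 genes) and -0.01 (III, 764 genes). In chromosome order, runs of at least 3 neighbours that differed by 1.5-fold without overlap occurred 4 times, and each run was among the end genes above: SPAC186.04c to SPAC186.06 and SPAC186.08c to SPAC750.01 on chromosome I, and SPCP20C8.01c to SPCP20C8.03 and SPCC569.03 to SPCC569.01c on chromosome III.

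**Figure D3:**
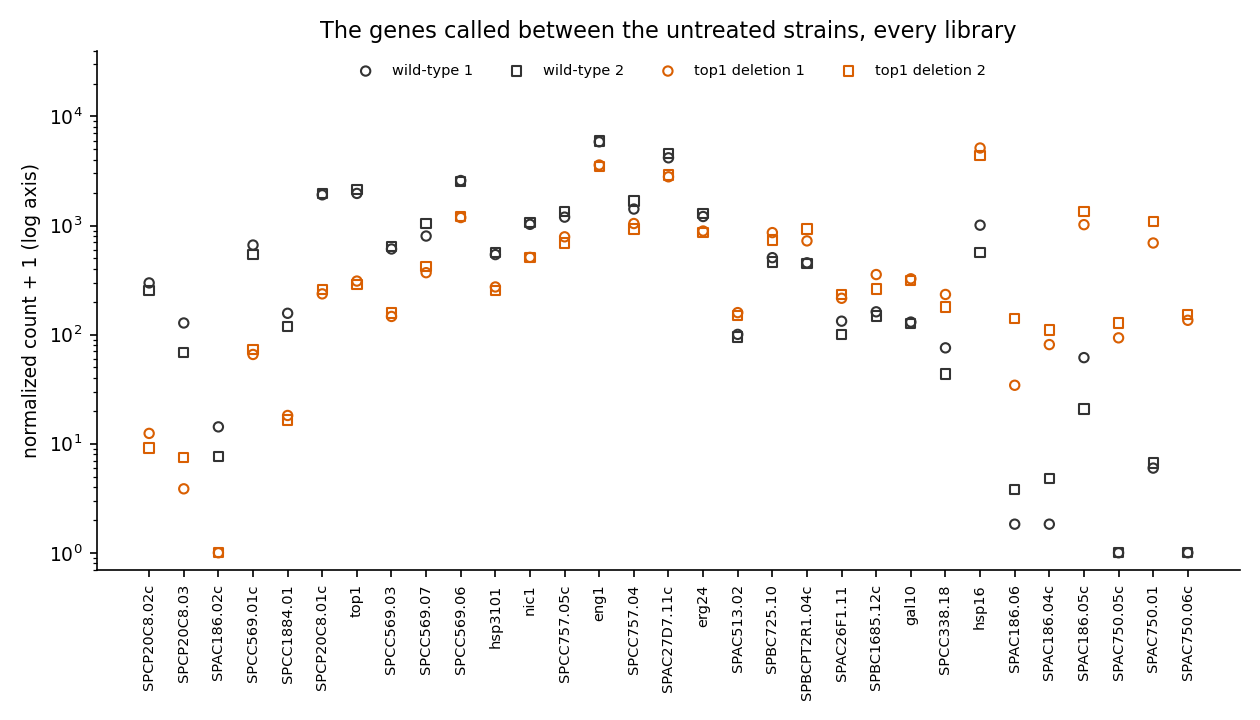
Normalized counts + 1 (vertical axis, log scale) of the 31 called genes in the 4 untreated libraries, in order of their log2 difference (horizontal axis, gene names), with wild-type libraries in black, Δ*top1* libraries in orange, replicate 1 as circles and replicate 2 as squares. In each gene both Δ*top1* libraries lie on 1 side of both wild-type libraries.

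Among the called genes away from the ends, *hsp16* had the greatest difference after *top1*. It encodes a small heat shock protein, a chaperone that holds unfolding proteins and is induced by heat and oxidants. The gene (SPBC3E7.02c, II:2660139-2660992, minus strand) had 1006 and 566 normalized counts for the wild-type pair and 5133 and 4355 for the Δ*top1* pair, with wild-type replicate 2 the lowest and the Δ*top1* libraries close together. The difference was 6.26-fold (log2 2.65, SE 0.24, adjusted p = 0.0014, limma). The 250 bases before its annotated transcript start (chrII:2660993-2661242, minus strand, read from ASM294v3) are shown because heat shock factor binds inverted repeats of GAA. They hold GAANNTTC 1 time, in capitals, and not TTCNNGAA.
*hsp16*: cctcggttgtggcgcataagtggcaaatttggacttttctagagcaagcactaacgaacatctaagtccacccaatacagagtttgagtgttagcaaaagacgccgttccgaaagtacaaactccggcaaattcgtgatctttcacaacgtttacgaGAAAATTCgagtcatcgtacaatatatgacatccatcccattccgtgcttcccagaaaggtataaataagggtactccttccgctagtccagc
Both motifs read the same on either strand and can overlap. GAANNTTC occurred in 9.49% and TTCNNGAA in 8.30% of 5003 windows of this length, so that a match is a description of the sequence only.

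Chaperone genes had a median slightly above that of all genes, with large differences in few of them. Of 40 heat shock protein and chaperone genes, *hsp16* was called higher and *hsp3101*, of the left end of chromosome III, lower; 32 were positive and the median log2 difference was 0.12, against 0.01 over all genes tested. *ssa1*, for a cytosolic Hsp70, had 3149 and 5241 normalized counts for the wild-type pair and 8915 and 11664 for the Δ*top1* pair without being called (log2 1.33, SE 0.30, adjusted p = 0.21, limma), while DESeq2 gave it 0.076 and scaling to the same total 0.099. The weakly expressed glyoxylase gene *hsp3105* had 28.2 and 22.6 against 13.3 and 22.8 (log2 -0.51), with overlap. Wild-type replicate 1 lay below the other libraries in this group: centred on the 4 untreated libraries, the median of the list was -0.17 and 0.04 for the wild-type pair and 0.03 and 0.11 for the Δ*top1* pair. The list median fell to 0.02 without that library. Of the promoters of these 40 genes 17 (42.5%) held either motif, against 16.6% of all. The median log2 differences with and without were 0.13 and 0.09 for these genes and 0.01 and 0.01 for all. A link between motif and level was not tested.

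Other genes away from the ends, and SPBC1685.12c, which has no position, were called higher at low to moderate levels. SPCC338.18 (III:1340628-1341792) had 74.6 and 42.4 normalized counts for the wild-type pair and 232 and 178 for the Δ*top1* pair (log2 1.83, adjusted p = 0.017, limma). SPBC725.10 (II:1224552-1226219), which resembles the tspO family of mitochondrial membrane proteins, had 506 and 462 against 860 and 734 (log2 0.71, SE 0.10, adjusted p = 0.017, limma). SPAC26F1.11 had 132 and 99.8 against 214 and 232 (log2 0.95, adjusted p = 0.095, limma), SPAC513.02 had 99.4 and 94.2 against 158 and 149 (log2 0.66, adjusted p = 0.071, limma), and SPBC1685.12c had 161 and 147 against 354 and 261 (log2 0.98, adjusted p = 0.035, limma). The strains did not overlap in these 5 genes, and each call was lost in some fit without 1 library. Such a fit has fewer libraries for the difference or the spread, so a lost call need not mean that 1 library made it. The log2 differences stayed positive in all of these fits, from 0.62 to 0.70 for SPAC513.02 and from 1.434 to 2.235 for SPCC338.18. SPCC338.18 had an adjusted p of 0.16 without Δ*top1* replicate 1, and SPBC725.10 had 0.15 without wild-type replicate 2 and 0.17 without Δ*top1* replicate 1. SPAC26F1.11 lost the call without any of 6 libraries (0.10 to 0.56), among them both untreated libraries of each strain and both treated wild-type libraries, and SPAC513.02 without the same 6 (0.11 to 0.50). SPBC1685.12c had 0.14 and 0.26 without wild-type replicates 1 and 2, 0.22 without Δ*top1* replicate 1, and 0.10 without either treated Δ*top1* library (limma throughout).

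The lower genes away from the ends were *eng1*, SPAC27D7.11c and *erg24*, all well expressed. *eng1* (SPAC821.09, I:998632-1002361, plus strand) encodes the endo-1,3-β-glucanase that dissolves the primary septum when daughter cells separate. It had 5848 and 5947 normalized counts for the wild-type pair and 3585 and 3495 for the Δ*top1* pair (1.67-fold lower; log2 -0.74, SE 0.13, adjusted p = 0.071, limma). Replicates agreed closely in both strains, but the adjusted p was 0.40 and 0.31 without wild-type replicates 1 and 2, and 0.43 and 0.48 without Δ*top1* replicates 1 and 2. Of the 20 genes listed for cell separation *eng1* alone was called, and the median log2 difference was -0.01. *adg1* had 5197 and 4936 against 4014 and 3971 (log2 -0.34, adjusted p = 0.99, limma), and *plo1*, the Polo kinase gene, had 888 and 847 against 1058 and 1090 (log2 0.31).

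*erg24* (II:4250013-4251433) encodes the C-14 sterol reductase of ergosterol synthesis. It had 1208 and 1292 normalized counts for the wild-type pair and 889 and 861 for the Δ*top1* pair (log2 -0.51, SE 0.08, adjusted p = 0.035, limma). None of the other 28 sterol synthesis genes was called, and the list median was -0.03. SPAC27D7.11c (I:4529389-4531066), a gene of the But2 family, had 4173 and 4558 against 2795 and 2896 (log2 -0.62, adjusted p = 0.023, limma). In both genes the strains were clearly apart with replicates close together. The adjusted p of *erg24* was 0.11 and 0.25 without wild-type replicates 1 and 2, and 0.28 and 0.39 without Δ*top1* replicates 1 and 2. That of SPAC27D7.11c was 0.17 without wild-type replicate 2, and 0.28 and 0.19 without Δ*top1* replicates 1 and 2 (limma throughout).

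Genes whose products work with Top1 or on chromatin were not called, other than *top1* itself. The other topoisomerase genes, *top2* with 2435 and 2887 normalized counts for the wild-type pair and 2928 and 2874 for the Δ*top1* pair and *top3* with 735 and 768 against 699 and 670, differed by 0.13 and -0.13 on the log2 scale. *tdp1*, for the phosphodiesterase that removes trapped Top1 from DNA, had 863 and 855 against 757 and 775 (log2 -0.17), and the 16 genes of this list reached from *top1* to 0.17. The 11 genes of core histones and H2A.Z lay between -0.12 and 0.12, with *hht1* at 15755 and 13078 against 14931 and 14812. Among 32 genes of ATP-dependent chromatin remodelers 27 were positive, against 52.0% of all genes tested, and the median was 0.06, with wild-type replicate 1 the lowest library (centred medians -0.11 and 0.01 against 0.03 and 0.04). *snf21*, the ATPase of the RSC complex, had 1923 and 2238 against 2503 and 2460 (log2 0.26). Of 37 genes of heterochromatin and silencing 24 were positive (median 0.05); *sir2*, an NAD-dependent histone deacetylase, had 842 and 959 against 742 and 725 (log2 -0.29), and *dcr1*, the Dicer gene, had 820 and 875 against 1166 and 955 (log2 0.32). The 14 shelterin and telomerase genes had a median of 0.06 and lay between *bqt4* at -0.17 and *trt1*, the telomerase reverse transcriptase gene, at 0.18. In the 17 genes of the SAGA coactivator the median was -0.07, while *tra1*, its large scaffold subunit, had 573 and 615 against 775 and 797 (log2 0.40, adjusted p = 0.37, limma).

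The cell wall genes had the highest median of the lists with 20 or more tested genes. Of 27 genes of cell wall glucan enzymes 21 were positive, the median was 0.17, and none was called; in 17 of them the Δ*top1* libraries lay above both wild-type libraries, against 20.7% of all genes. *mok11*, an α-1,3-glucan synthase gene, had 655 and 859 normalized counts for the wild-type pair and 905 and 941 for the Δ*top1* pair, and *mok12* had 599 and 672 against 785 and 782 (log2 0.30 for each). By library the centred medians of the list were -0.13 and 0.01 for the wild-type pair and 0.07 and 0.05 for the Δ*top1* pair, so that wild-type replicate 1 was again the lowest. The median was 0.06 without that library and 0.05 after a correction for length and GC content, an alternative added after the values were seen.

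The stress and defence genes had medians close to 0. Of 41 genes of the core environmental stress response, which are induced in this yeast by many stresses, 28 were positive, the median was 0.04 and *hsp16* alone was called. Of 30 antioxidant genes 17 were positive and the median was 0.01. *bcp1*, for a thioredoxin peroxidase, had 1079 and 1148 normalized counts against 1359 and 1401 (log2 0.31), *pmp20*, for a peroxiredoxin-related chaperone, had 14274 and 11493 against 9121 and 10226 (log2 -0.41), and *gst2*, for a glutathione S-transferase, varied between replicates, with 1994 and 5374 against 4671 and 6233. In the 46 DNA repair and checkpoint genes the median was 0.04, and *rad54*, of recombination repair, had 756 and 928 against 1021 and 1048 (log2 0.30).

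Genes of growth, translation and energy were close to 0. The 141 cytosolic ribosomal protein genes had a median of -0.00 with 69 positive, and *rps1401* was lowest with 6358 and 4182 normalized counts for the wild-type pair and 4056 and 3651 for the Δ*top1* pair (log2 -0.42, called without wild-type replicate 2, adjusted p = 0.061, limma). The 90 ribosome biogenesis genes had a median of 0.06 with 63 positive, and *nsa2*, which lies 45.3 kb from the right end of chromosome III, was lowest with 4071 and 4295 against 3454 and 3479 (log2 -0.27). The 61 mitochondrial ribosomal protein genes had a median of -0.05 with 16 positive, and 0.06 without wild-type replicate 1. Medians were 0.07 for 37 translation factor genes, -0.03 for 31 RNA polymerase subunit genes, 0.01 for 59 spliceosome genes, 0.05 for 33 proteasome genes, -0.01 for 56 respiratory chain genes, 0.06 for 18 citric acid cycle genes and 0.00 for 65 autophagy and vacuole genes, with no call in any. Among 20 glycolysis genes (median 0.05) *gpd3*, for glyceraldehyde 3-phosphate dehydrogenase, had 2920 and 2078 against 5368 and 4111 (log2 0.93, adjusted p = 0.58, limma, 0.026 by DESeq2).

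In some classes the replicates differed more than the strains. The 62 amino acid biosynthesis genes had a median of -0.08 with 10 positive, but the centred medians were -0.14 and 0.22 for the wild-type pair and -0.16 and 0.10 for the Δ*top1* pair, low in both replicates 1 and high in both replicates 2. *met17*, for homocysteine synthase, had 2330 and 4252 normalized counts for the wild-type pair and 1682 and 3588 for the Δ*top1* pair, and *his4* had 2921 and 5674 against 2681 and 4589, each with overlap between the strains. The 21 genes of hexose transport and glucose repression behaved alike: *ght5*, the high-affinity glucose transporter gene, had 2641 and 5716 against 1841 and 4071 (log2 -0.51, with overlap). In these 3 genes the Δ*top1* value lay below the wild-type value of the same replicate number. The list medians were 0.12 and 0.05 without wild-type replicate 2, against -0.08 and -0.08 with all libraries.

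Of the genes of nutrient starvation, mating and repeats none was called, apart from *gal10*. The 5 subtelomeric galactose genes had a median of 0.33, which was -0.09 without Δ*top1* replicate 2. The 25 nitrogen starvation genes had a median of 0.08 with 20 positive, and *mei2*, the RNA-binding inducer of meiosis, had 208 and 130 normalized counts against 255 and 266 (log2 0.66). The 25 mating and pheromone genes had a median of 0.12, which was 0.00 without wild-type replicate 2, and the 125 *mug* and *meu* genes, named for meiotic expression, a median of 0.01. Of the 21 iron, copper and zinc uptake genes (median -0.03) *str3*, a siderophore transporter gene, had 389 and 480 against 192 and 305 (log2 -0.83, adjusted p = 0.59, limma). The 22 *wtf* spore killer genes, a family of close relatives, had a median of -0.14 with 5 positive, which was -0.04 without wild-type replicate 1. *wtf23* had 222 and 206 against 153 and 146, and *wtf15* had 234 and 225 against 169 and 174. The 9 Tf2 retrotransposon genes, whose copies share reads, had a median of -0.04, and 0.32 without wild-type replicate 2. Medians of the remaining lists were 0.07 for 23 MBF-controlled G1/S genes, 0.02 for 12 phosphate genes, 0.05 for 17 flocculin genes and 0.05 for 19 actin and tubulin genes, again without a call. Of 22 marker genes of mating type, auxotrophy, nutrient state and stress 20 were tested and none was called (median -0.01). The stress marker *ctt1* was the lowest at -0.46 and *mei2* the highest at 0.66.

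**Figure D4:**
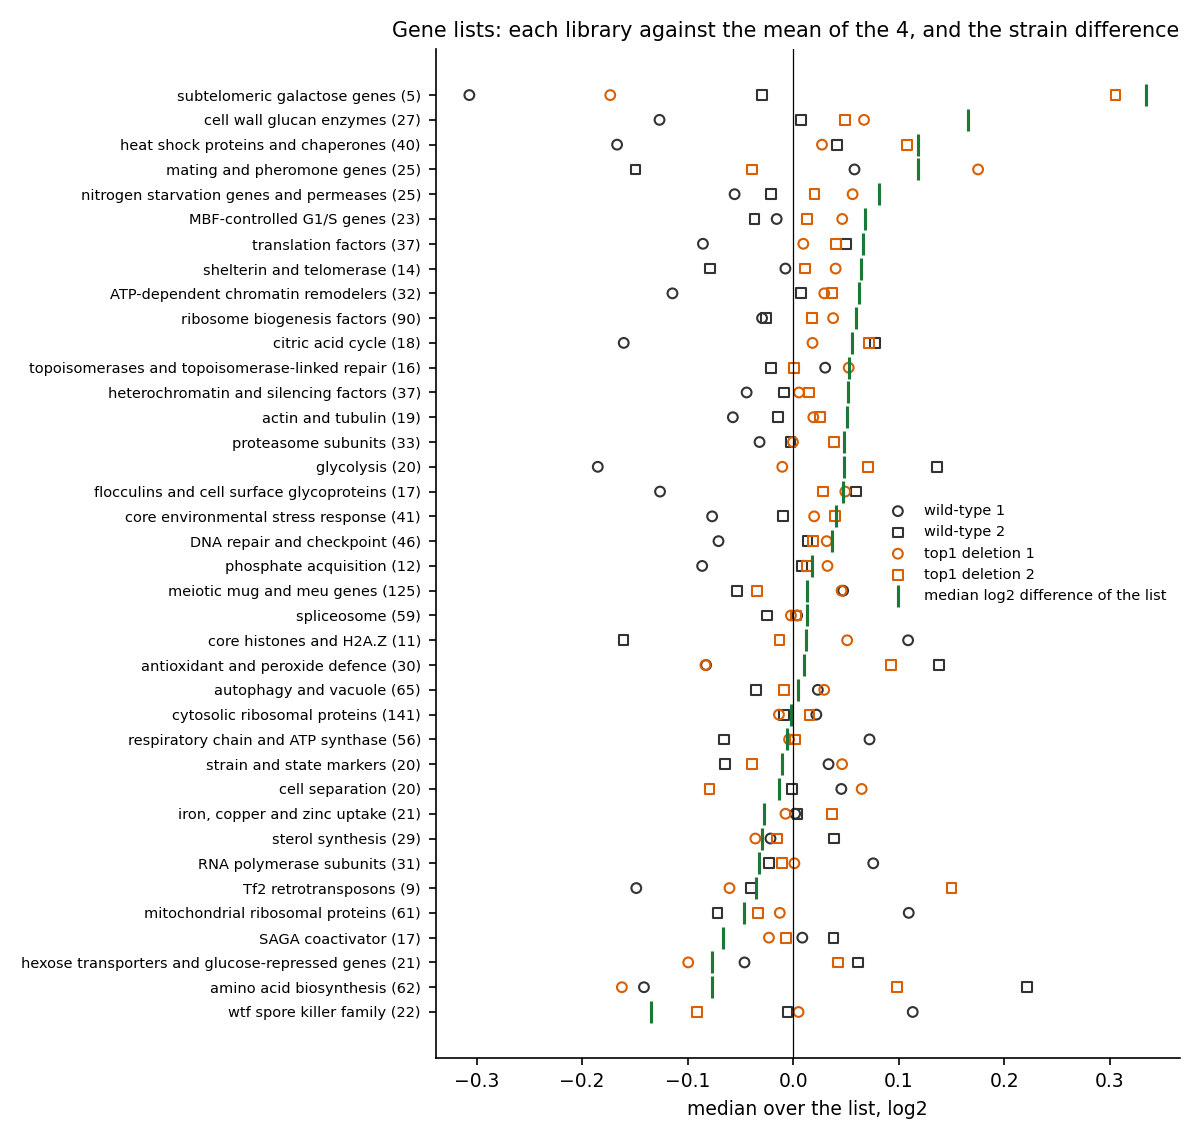
Median log2 value of each gene list (number of tested genes in brackets) in the 4 untreated libraries, each against the mean of the 4 (circles replicate 1, squares replicate 2, black wild-type, orange Δ*top1*), and the median log2 difference between the strains (green bar). Wild-type replicate 1 is the lowest library for the chaperone, cell wall and chromatin remodeler lists, and for amino acid biosynthesis the replicates differ more than the strains.

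A small shift with transcript length ran through the whole transcriptome. In quintiles of length, from the shortest to the longest genes with a position, the median log2 differences were -0.03, -0.04, -0.02, 0.02 and 0.10, and 805 of the 1001 genes of 2718 to 15002 bases (80.4%) were positive. The libraries did not share this evenly. In the longest genes the centred medians were -0.10 and -0.00 for the wild-type pair and 0.07 and 0.03 for the Δ*top1* pair, and in the shortest (145 to 1022 bases) 0.07 and -0.04 against -0.02 and 0.00. Across 5003 genes, which are not independent replicates, length and the log2 difference had a Spearman coefficient of 0.32; between the libraries numbered 1 it was 0.45 and between those numbered 2 it was -0.00. Within wild-type the difference of replicate 1 to replicate 2 had a coefficient of -0.35, as large as the relation between the strains, and within Δ*top1* 0.12. Without wild-type replicate 1 the median of the longest quintile was 0.05 and that of the shortest 0.02, and without wild-type replicate 2 they were 0.15 and -0.08. The part of this library in the list medians above was not tested beyond these values.

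**Figure D5:**
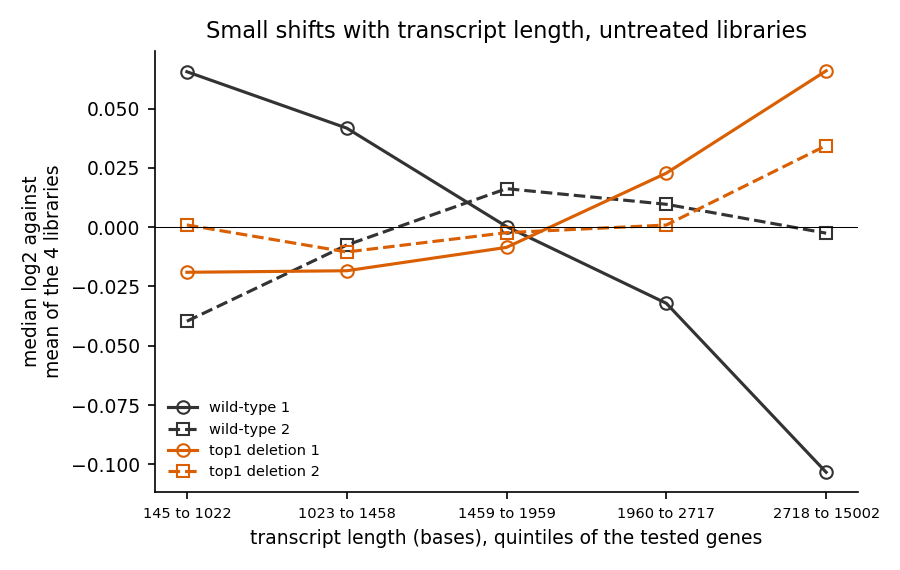
Median log2 value (vertical axis) of the tested genes with a position in quintiles of transcript length (horizontal axis, bases), in each untreated library against the mean of the 4. Wild-type replicate 1 runs from 0.07 in the shortest to -0.10 in the longest genes, both Δ*top1* libraries are highest in the longest genes, and wild-type replicate 2 has its extreme, -0.04, in the shortest.

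Other properties gave smaller shifts. By GC content the medians of the quintiles ran from -0.05 (lowest GC) to 0.03 (highest). The wild-type replicates differed more than this. At the lowest GC the centred medians were 0.10 and -0.05 for the wild-type pair and -0.01 and -0.02 for the Δ*top1* pair. At the highest GC they were -0.08 and 0.04 against 0.01 and 0.03. By expression level, taken from the treated wild-type libraries so that the ranking does not use the comparison, they ran from -0.02 to 0.02. At the lowest level the wild-type pair had centred medians of 0.06 and -0.04, and at the highest -0.06 and 0.03. Orientation made no visible difference: genes with a divergent and a tandem upstream neighbour had medians of 0.01 and 0.01 (2709 and 2293 genes), and those with a convergent and a tandem downstream neighbour 0.00 and 0.01 (2744 and 2256 genes).

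The same genes were then read in the libraries treated with H2O2, which are separate libraries of the same strains. Between the treated strains 1595 of the tested genes were called (31.8%), and the interaction of strain and treatment was called in 199 (3.96%). Of the 31 genes called without stress, 27 had the same sign between the treated strains, 19 were also called there, and the interaction was called in 8. For the 21 genes within 100 kb of an end these numbers were 20, 17 and 4. For the 9 others with *top1* left out and SPBC1685.12c included they were 6, 1 and 4. The 31 genes were chosen by their untreated difference, which enters the interaction, so their interaction counts are not comparable with the share over all genes. At the chromosome ends SPAC750.01 had 13.1 and 12.4 normalized counts in treated wild-type and 4737 and 6177 in treated Δ*top1*, and SPCP20C8.01c had 5547 and 5891 against 1025 and 1355. SPAC750.05c and SPAC750.06c had no read in treated wild-type cells either.

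Genes with an interaction differed in form. *hsp16* had 36157 and 30372 normalized counts in treated wild-type and 17938 and 21483 in treated Δ*top1*, below wild-type where it was above it without stress (log2 -0.76, adjusted p = 0.059; interaction adjusted p = 0.0096, limma). SPCC338.18, with 1093 and 1290 against 1006 and 1043, and SPBC725.10, with 15042 and 14577 against 14671 and 14777, were close to wild-type after treatment (interaction adjusted p = 0.042 and 0.054, limma). *nic1* had 735 and 781 against 752 and 711 (interaction adjusted p = 0.013, limma), while *hsp3101*, its near neighbour, remained lower with 24272 and 20582 against 8129 and 6859. *eng1* had 511 and 425 in treated wild-type and 514 and 403 in treated Δ*top1*, with no interaction called (adjusted p = 0.11, limma). SPAC27D7.11c was lower again in treated cells, with 8374 and 7891 against 2699 and 2457 (interaction adjusted p = 0.013, limma). SPAC186.02c, with no read in untreated Δ*top1* cells, was higher than wild-type after treatment, with 50.1 and 49.7 against 234 and 137 (interaction adjusted p = 0.016, limma).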

How the data were processed

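Poly(A) RNA was sequenced by the authors as stranded libraries of single 50-base reads from 2 biological replicates of each strain and treatment. The authors deposited the signal as DESeq2-normalized counts, with a size factor for each library. The paper's methods name FastQC, Salmon and DESeq2 on the ASM294v2 transcriptome, while the submitters' processing notes name Trimmomatic, STAR and HTSeq with ASM294v2, and which of them counted these reads is not settled by the sources used here. The handling of reads that fit several genes, and whether the counting used strand, are not given in the sources used here.

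The values came out as whole reads (5164 of 5165 per library, 99.98%, tolerance 0.01 reads). All per-sample columns were used. Genes averaging 10 or more normalized counts across the 8 libraries entered limma 3.58.1 in R 4.3.3 on log2(normalized count + 1), with 4 group means, variance trend and two-sided Benjamini-Hochberg adjustment over all genes tested. Calls were made at an adjusted p under 0.1, and also with at least a 2-fold change. edgeR 4.0.16 and DESeq2 1.42.0 were run on the recovered reads as alternatives, beside other pseudocounts, minimums, scalings, the replicate block and each library left out. The fit was also run on simulated counts, with the same spread setting for all genes and no difference between replicate numbers. That run cannot show how the fit performs on these libraries, whose replicates differ. Intervals and floors of reads cover counting error only.

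Positions, products, lengths and promoters are from ASM294v3, matched by gene identifier (5129 of 5165), and no coordinates were carried between builds. Shared sequence is the share of the 31-base words of a transcript that occur in another.

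The comparison, the gene lists and their members were chosen with earlier results of these data known. From the lists 14 genes were removed after their values were seen, because their annotated product did not belong there. Named genes are *top1*, 3 genes on each side of it, the called genes, and members of the lists. The rule for the lists takes the 2 highest and 2 lowest members of each, and topoisomerase, histone and marker genes in full; of these the text gives a selection made after the values were seen, with the rest as ranges and counts. Genes near chromosome ends that were not called were also chosen after their values were seen. One motif search is not reported here.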

Additional observations from a re-analysis of the deposited data

Results flagged for a closer look

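Of the 31 called and 65 other genes named here, 13 had a difference between the strains that was not the same with and without H2O2. The measure was limma's interaction of strain and treatment at an adjusted p under 0.1, which was called in 3.96% of all genes tested. Many of the named genes were chosen for a large untreated difference, which enters the interaction. Their count is therefore not comparable with that share. The values below are the log2 difference between the treated strains minus that between the untreated strains.

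*hsp16* had -3.40 (adjusted p = 0.0096), from higher in untreated to lower in treated Δ*top1* cells, and *ssa1*, the Hsp70 gene, had -2.0 (adjusted p = 0.070), from 1.33 to -0.67. The catalase gene *ctt1* had 1.75 (adjusted p = 0.013), from -0.46 to 1.29, the glyoxylase gene *hsp3105* 2.20 (adjusted p = 0.077) and the siderophore transporter gene *str3* 2.42 (adjusted p = 0.026), from -0.83 to 1.58. *rad54*, of recombination repair, had -0.67 (adjusted p = 0.078).

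SPCC338.18 had -2.05 (adjusted p = 0.042), SPBC725.10 -0.72 (adjusted p = 0.054) and SPAC27D7.11c -1.04 (adjusted p = 0.013). Near the ends of chromosome III, SPCC569.06 had 0.69 (adjusted p = 0.034) and *nic1* 0.98 (adjusted p = 0.013), both nearer to wild-type after treatment. Near the right end of chromosome I, SPAC750.01 had 1.52 (adjusted p = 0.076) and SPAC186.02c 5.20 (adjusted p = 0.016), the latter resting on 23 reads or fewer in the untreated libraries together (limma for all values).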

How the results depend on the processing

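*top1* kept its call under all 25 alternatives in which single genes were compared. Of the 31 called genes, 14 stayed past the threshold under each of these alternatives in which they were refitted, and none changed sign. The test by limma's treat against 2-fold is not among them. Genes with over 10% shared sequence, some of the 14 included, were not refitted where such genes were left out. With all libraries and limma 14 genes were higher and 17 lower; leaving out 1 library gave 7 to 14 higher and 11 to 17 lower, and at least 2-fold 7 to 11 higher and 10 to 12 lower. The fit of the untreated libraries alone gave 8 higher, as did leaving out genes with over 10% shared sequence, which also gave 7 lower by at least 2-fold. DESeq2 called 28 higher and 32 lower, and 16 higher by at least 2-fold. The fold alone, with no test, gave 31 and 21 genes, a fold of 1.5 in place of 2 gave 14 higher, and limma's treat gave 6 lower.

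Replicate numbers 1 and 2 are in the labels, which do not say that they mark a shared batch. The deviations of same-numbered untreated libraries from their group means correlated at 0.617 across genes, from 2 numbers only. With the replicate block 33 genes were higher and 35 lower (14 higher by at least 2-fold), with block and untreated libraries alone 200 and 185 (24 higher by at least 2-fold), and with block and length and GC correction 35 and 43 (14 higher by at least 2-fold).

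Of 65 genes named here and not called, 8 passed the threshold with DESeq2, 8 with the replicate block (among them SPBC1703.13c, SPBC2A9.02, *ssa1* and *ght5*), 11 with block and length and GC correction, 43 with block and untreated libraries alone, and at most 2 under any other alternative.

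Rescaling moved the median of all genes from 0.01 to -0.01 (same total), -0.02 (same upper quartile), 0.00 (TMM) and -0.00 (quantile normalization). Of the 38 gene lists 25 had a positive median, 19 after scaling to the same total or upper quartile, 20 after quantile normalization, and 23 to 28 without 1 library; 12 list medians changed sign without wild-type replicate 1 and 11 without wild-type replicate 2.

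Among genes that were not called the sign turned as follows, and the cause was not tested. Leaving out 1 library gave log2 differences from -0.18 (without wild-type replicate 2) to 0.091 (without wild-type replicate 1) for SPBC1703.11, with 0.0013 without Δ*top1* replicate 2, and from -0.086 to 0.080 for *ubp9*. They ran from -0.11 to 0.37 for *gal7*, from -1.08 to 0.067 for *ght5*, from -0.69 to 0.26 for *his4*, from -0.90 to 0.19 for *met17*, and from -0.16 to 0.066 for *swi10*, a repair endonuclease subunit gene. For *hht1* they ran from -0.083 without wild-type replicate 2 to 0.19. After length and GC correction, with or without the block, SPBC1703.11 had 0.0027 and *top2* -0.0038. At this depth genes with few reads, such as SPAC186.04c in wild-type, carry large counting errors.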
